A study of Mus musculus with 2 samples.

Results

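The genes described here encode the matrix metalloproteinases (MMPs), the ADAM and ADAMTS proteases, the ADAMTS-like proteins and the tissue inhibitors of metalloproteinases (TIMPs), in heart sections of a control mouse and a TOP2B transgenic mouse. Members were all gene symbols beginning with Mmp, Adam or Adamts and a number, or with Adamtsl, and Timp1 to Timp4, with at least 20 unique molecular identifiers (UMIs, counted molecules) over both sections. Of 19465 genes in the count tables, 83 had such a symbol and 61 reached the minimum. These were 4 of 4 TIMP genes, 19 of 22 MMP genes, 17 of 33 ADAM genes, 16 of 19 ADAMTS genes and 5 of 5 ADAMTS-like genes. Of the 22 genes below the minimum, 3 had no UMI in either section.

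The control heart carried α-MHC-MerCreMer+/−, a tamoxifen-dependent Cre driven by the cardiomyocyte α-MHC promoter. The transgenic heart was α-MHC-MerCreMer+/−TOP2B LSL/−, in which a CAG promoter and a STOP cassette flanked by loxP sites precede a human TOP2B cDNA at Rosa26, so that Cre switches the cDNA on in cardiomyocytes. Both genotypes received 1 intraperitoneal tamoxifen dose of 80 mg/kg, given at 6 weeks of age per the methods, and the time from the dose to the collection of these sections is not given in the sources used here. Each genotype was measured in 1 FFPE section by the Visium CytAssist assay, in which gene probes are captured on barcoded spots. No test between genotypes was possible, and no difference has a replicate check.

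MMPs are zinc proteases that cut collagens, other matrix proteins and one another's proforms, and TIMPs bind their active site. ADAMs are membrane-anchored relatives known for releasing growth factors, cytokines and receptors from the cell surface. ADAMTS proteases are secreted and act on procollagens, proteoglycans and microfibrils, while the ADAMTS-like proteins share their matrix-binding domains without the protease. In the heart these families are known from matrix turnover during growth, injury and fibrosis.

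The control section held 1256 spots and 14376300 UMIs and the transgenic section 924 spots and 12953389 UMIs. UMIs were summed over a section and given per 1000000 UMIs of that section (CPM). Ranges in parentheses are 95% intervals from counting error alone. Each section was also divided into 4 quadrants as a measure of the spread inside it, which is not a spread between animals. The cardiomyocyte list, of Myh6, Tnnt2 and other heart muscle genes, was detected in both sections except Actc1, which had no UMI. It summed to 81985 CPM in control tissue and 43834 CPM in transgenic tissue. The genes of this list did not differ alike, as 2 were higher and 7 lower in the transgenic section. Their log2 ratios of transgenic over control CPM ran from -1.92 (Tnni3) to 0.17 (Tnnt2). Erythroid genes took 0.215% of control UMIs and 2.04% of transgenic UMIs. Spots with at least 20% erythroid UMIs numbered 8 in the control and 48 in the transgenic section, and in those 48 the members described below summed to 1062 CPM, against 3155 CPM in the other transgenic spots. The mouse Top2b gene had 106 CPM in control tissue and 102 CPM in transgenic tissue, and since the transgene is human, this did not check the labels.

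Members together took 19477 control UMIs (0.135%) and 40358 transgenic UMIs (0.312%). Of the 61 members, 28 (45.9%) exceeded the control CPM at least 2-fold in the transgenic section, a difference of 1 on the log2 scale, against 13.7% of the 15236 genes with at least 20 UMIs. They were 3 TIMP, 8 MMP, 5 ADAM, 10 ADAMTS and 2 ADAMTS-like genes. At least 2-fold lower were Mmp15, Adam3 and Adamts17, or 4.92% of members against 5.61% of all genes, and with 1 CPM added to both sections Adam3 and Adamts17 were less than 2-fold lower. The median log2 ratio of transgenic over control CPM was 0.88 over the members and 0.20 over all genes. In 28 members every transgenic quadrant lay above every control quadrant, against 30.4% of all genes, and in 3 members (Mmp15, Adamts7 and Adam11) every transgenic quadrant lay below, against 13.1% of all genes. The plot of log2 ratios shows ADAMTS and ADAMTS-like genes mostly to the right of 0 and ADAM genes on both sides of it.

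**Figure D1:**
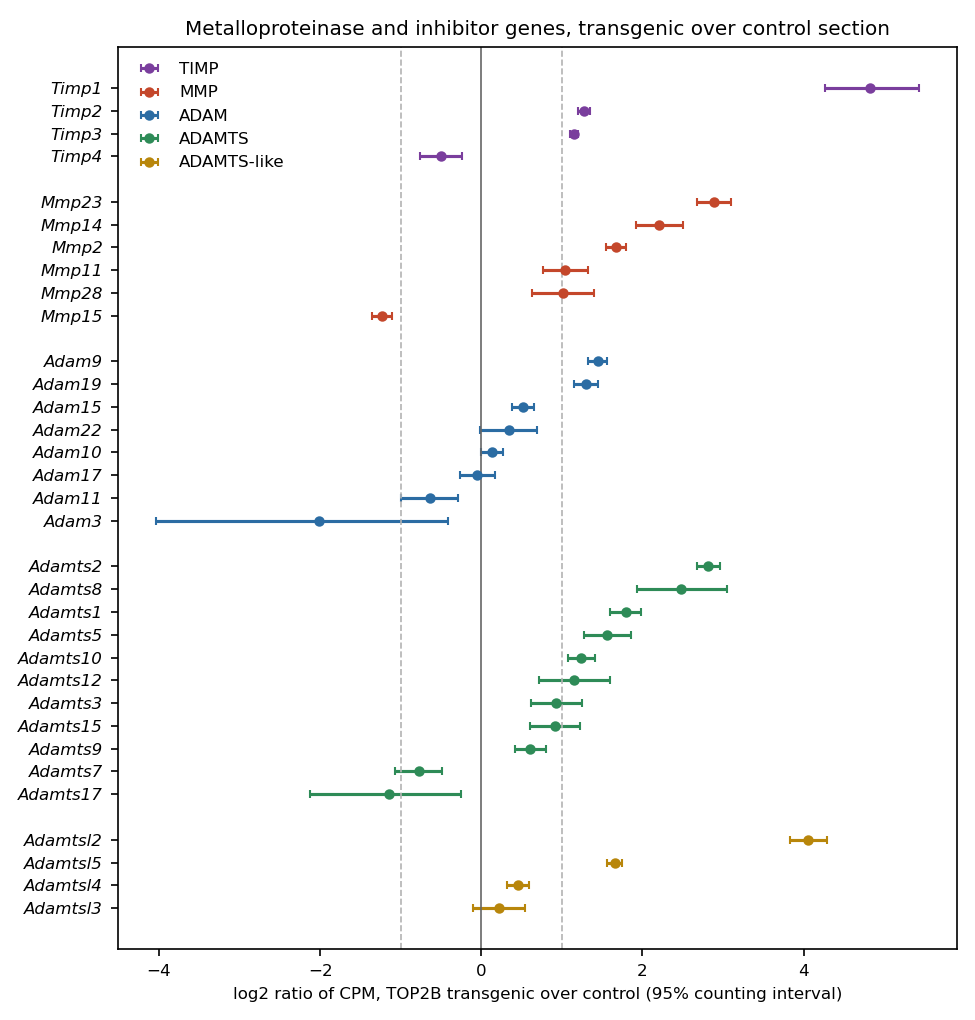
Log2 ratio of transgenic over control CPM (horizontal axis) for 33 members, ordered within their family, with 95% counting intervals as bars and dashed lines at 2-fold. Timp1 at 4.82 and Adamtsl2 at 4.06 lie farthest to the right, and Adam3 at -2.02, which rests on 18 and 4 UMIs, lies farthest to the left.

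Among the inhibitors, the sum of the TIMP genes was 482 CPM in control tissue and 1112 CPM in transgenic tissue (log2 ratio 1.21, 1.17 to 1.25). Timp1, a secreted inhibitor known as inducible in injured tissue, was barely counted in the control section and had a UMI in 46.2% of the transgenic spots. Timp2 and Timp3 were each a little over 2-fold higher, and Timp4, the inhibitor known for its expression in heart, was lower in only part of the transgenic section.

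Timp1 (ENSMUSG00000001131) had 27 UMIs or 1.88 CPM in control tissue and 686 UMIs or 53.0 CPM in transgenic tissue (log2 ratio 4.82, 4.26 to 5.43). The control quadrants held 2.05, 1.33, 1.39 and 2.78 CPM, and the transgenic quadrants 68.4, 57.5, 45.0 and 41.9 CPM. The quadrants of the sections were far apart. A Timp1 UMI was found in 2.15% of control spots (1.42% to 3.11%) and in 46.2% of transgenic spots (43.0% to 49.5%). After each spot was thinned to 8134 UMIs, so that depth was equal and 140 control and 78 transgenic spots were left out, these shares were 1.43% and 32.5%.

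Timp4 (ENSMUSG00000030317) had 318 UMIs or 22.1 CPM in control tissue and 203 UMIs or 15.7 CPM in transgenic tissue (log2 ratio -0.50, -0.76 to -0.24). The control quadrants held 21.7, 21.8, 18.9 and 26.1 CPM, and the transgenic quadrants 21.9, 8.63, 22.2 and 9.62 CPM. A pair of transgenic quadrants thus lay within the control range and the other pair was far below it. A Timp4 UMI was found in 22.1% of control spots and 18.2% of transgenic spots, and in 16.3% and 11.9% after thinning. Of the UMIs of Timp1 and Timp4 together, Timp1 made up 7.83% (5.22% to 11.2%) in the control and 77.2% (74.3% to 79.9%) in the transgenic section.

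Timp3, the inhibitor that stays bound to the matrix and also acts on ADAM and ADAMTS proteases, had 306 CPM in control tissue and 678 CPM in transgenic tissue (log2 ratio 1.15, 1.10 to 1.20, and 0.99 with TMM scaling). Its control quadrants ranged from 284 to 343 CPM and its transgenic quadrants from 578 to 780 CPM. Timp2, which takes part in the activation of proMMP2 on the cell surface as well as in inhibition, had 152 and 366 CPM (log2 ratio 1.27, 1.20 to 1.34). Its quadrants, from 141 to 171 CPM in the control and from 308 to 447 CPM in the transgenic section, did not overlap either.

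**Figure D2:**
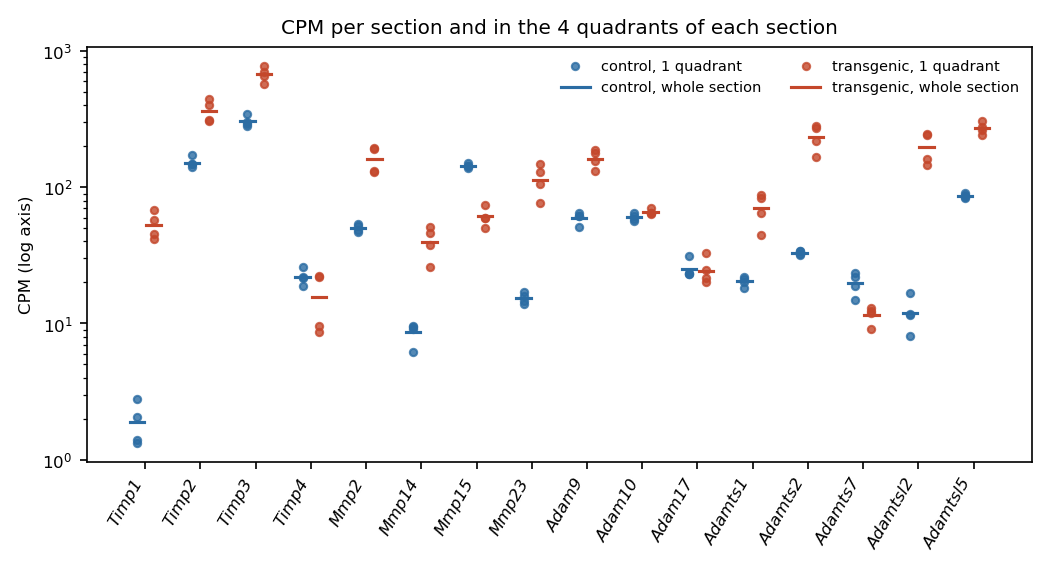
CPM on a log axis for 16 members in the control (blue) and transgenic (red) section, with a line for the whole section and a point for each of its 4 quadrants. Points of the sections lie apart for Timp1, Mmp15 and Adamtsl2 and overlap for Timp4, Adam10 and Adam17, and the transgenic Timp4 points form a high pair near 22 CPM and a low pair at 8.63 and 9.62 CPM.

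The MMP genes did not all differ in the same direction. Mmp15, a membrane-type MMP, was more than 2-fold lower in CPM, while Mmp2 (gelatinase A), its surface activator Mmp14 and Mmp23 were higher by 3-fold or more. The sum of the 19 MMP members was 253 CPM in control tissue and 437 CPM in transgenic tissue (log2 ratio 0.79, 0.73 to 0.85), whereas the median of their log2 ratios was 0.15.

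Mmp15 (ENSMUSG00000031790) had 2077 UMIs or 144 CPM in control tissue and 796 UMIs or 61.5 CPM in transgenic tissue (log2 ratio -1.23, -1.35 to -1.11). The control quadrants held 140, 151, 144 and 144 CPM and the transgenic quadrants 59.8, 50.3, 74.7 and 59.8 CPM, so that every transgenic quadrant was lower. Mmp14, the membrane-type MMP that cleaves fibrillar collagen and proMMP2, had 8.63 CPM in control tissue and 39.7 CPM in transgenic tissue (log2 ratio 2.20, 1.92 to 2.50). The control quadrants of Mmp14 held 6.15, 9.58, 9.16 and 9.44 CPM and the transgenic quadrants 37.6, 46.3, 26.1 and 50.9 CPM. The 6 membrane-type members summed to 158 CPM in control tissue and 109 CPM in transgenic tissue (log2 ratio -0.54, -0.64 to -0.45), although only Mmp15 among them was 2-fold lower and 2 were 2-fold higher.

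Mmp2 had 725 UMIs or 50.4 CPM in control tissue and 2081 UMIs or 161 CPM in transgenic tissue (log2 ratio 1.67, 1.55 to 1.80). Its quadrants held 48.3, 52.2, 46.9 and 54.1 CPM in the control and 129, 193, 131 and 190 CPM in the transgenic section. Every transgenic quadrant was higher, and the pair with the highest Mmp2 was the pair with the lowest Timp4. Mmp23, a membrane-anchored MMP that lacks the hemopexin domain, had 15.4 CPM in control tissue and 114 CPM in transgenic tissue (log2 ratio 2.89, 2.68 to 3.10). It was not counted among the 6 membrane-type members, and a membrane-bound sum that includes it was not computed.

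Mmp11 (stromelysin 3) had a log2 ratio of 1.04 (0.76 to 1.32) and Mmp28 (epilysin) of 1.01 (0.63 to 1.39), and both were just past 2-fold, a level that neither reached with TMM or DESeq2 scaling. The remaining 13 MMP members had fewer than 200 UMIs over both sections. Of these, 3 genes were picked out after their values were seen. Mmp3 (stromelysin 1) had 16 and 74 UMIs in the control and transgenic sections, and Mmp19 had 10 and 54. Mmp9 (gelatinase B), known from neutrophils and macrophages, had 39 UMIs in each section (log2 ratio 0.15, -0.53 to 0.83).

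Genes known from testis and sperm gave a measure of the lowest counts. A list of 21 such ADAM genes, chosen after the counts were seen, had a median of 8 control and 5 transgenic UMIs. Only 2 of them had more than 18 UMIs in the control section, but the highest counts of the list were 73 control and 43 transgenic UMIs. Outside that list 6 members, Adam23, Mmp7, Mmp8, Mmp12, Mmp20 and Mmp25, had no more than 18 UMIs in either section, so the collagenase Mmp8 and the macrophage elastase Mmp12, at 14 control and 8 transgenic UMIs each, were not told apart from that level. Adam3, the lowest ADAM log2 ratio at -2.02 (-4.04 to -0.42), belongs to the testis list and had 18 and 4 UMIs.

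As shares of the UMIs of all MMP members, Mmp15 made up 57.1% in the control and 14.1% in the transgenic section, Mmp2 19.9% and 36.7%, Mmp23 6.07% and 26.0%, and Mmp14 3.41% and 9.08%. Among TIMP UMIs the shares of Timp3 (63.5% and 60.9%) and Timp2 (31.5% and 32.9%) were close between sections. The number of probes per gene is not given in the sources used here, so these shares compare a gene between sections and do not rank the genes of a family by their RNA.

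**Figure D3:**
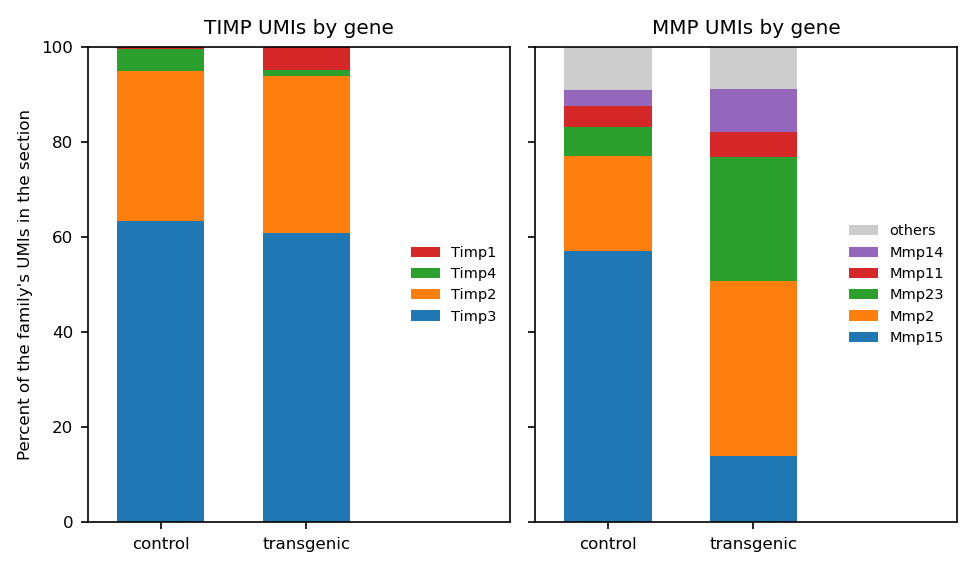
Share of each gene in the UMIs of all TIMP genes (left) and all MMP members (right), in percent of the family's UMIs, for the control and the transgenic section. Mmp15 takes the largest block of the control MMP bar (57.1%) and Mmp2 and Mmp23 the largest blocks of the transgenic bar (36.7% and 26.0%), while Timp3 and Timp2 fill most of both TIMP bars.

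Whether the share of inhibitors among these UMIs was higher or lower in the transgenic section depended on which proteases were set against the TIMPs. Against all MMP members, TIMP genes took 65.6% of the UMIs (64.6% to 66.5%) in the control and 71.8% (71.2% to 72.4%) in the transgenic section, with quadrants from 64.2% to 68.7% and from 70.6% to 73.1%. At the tissue edge the control and transgenic shares were close, at 70.2% and 71.1%, against 64.6% and 72.1% in the interior. The higher share of the whole transgenic section turned around when Mmp15 was left out of the MMP sum, an alternative chosen after seeing the data. It was then 81.6% in the control and 74.8% in the transgenic section. Against the ADAMTS genes the TIMP share was also lower in the transgenic section, at 67.2% compared with 73.0%. Against MMP, ADAM and ADAMTS genes together it was 40.6% in the control and 43.6% in the transgenic section, and the quadrant ranges of 39.4% to 43.3% and 42.9% to 44.4% overlapped. These are ratios of counted RNA probes, and neither protein nor protease activity was measured.

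Among the ADAM genes, the sheddases Adam10 and Adam17 were close to level while Adam9 and Adam19 were more than 2-fold higher. The ADAM sum was 275 CPM in control tissue and 459 CPM in transgenic tissue (log2 ratio 0.74, 0.68 to 0.80). Adam9 had 59.5 and 162 CPM (log2 ratio 1.44, 1.33 to 1.56). Adam19 (meltrin β), known from heart valve and septum development, had 36.4 and 89.9 CPM (log2 ratio 1.30, 1.15 to 1.45). All transgenic quadrants of both genes lay above all control quadrants.

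Adam10, which cleaves Notch receptors and cadherins, had 60.1 CPM in control tissue and 66.0 CPM in transgenic tissue (log2 ratio 0.14, -0.00 to 0.27, and -0.02 with TMM scaling). Adam17, which releases TNF and ligands of the EGF receptor, had 25.3 and 24.5 CPM (log2 ratio -0.05, -0.27 to 0.17). The quadrants of the sections overlapped for both genes. Adam10 therefore made up 21.9% of ADAM UMIs in the control and 14.4% in the transgenic section, and Adam9 21.7% and 35.3%.

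Adam15, known from endothelium, had a log2 ratio of 0.52 (0.38 to 0.66). Adam22 and Adam11 lack the catalytic zinc motif. Adam22 was at 8.83 and 11.2 CPM with an interval of the log2 ratio that spanned 0 (-0.01 to 0.70), and Adam11 was at 12.9 and 8.26 CPM from 185 and 107 UMIs (log2 ratio -0.64), with every transgenic quadrant below the control.

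The ADAMTS sum showed the largest log2 ratio of the 4 protease and inhibitor families, 1.61 (1.54 to 1.67), from 178 CPM in the control to 543 CPM in the transgenic section. Adamts2 alone made up 18.6% of ADAMTS UMIs in the control and 42.9% in the transgenic section, and the sum without it was not computed. Without Mmp15, an alternative chosen after seeing the data, the MMP sum had a log2 ratio of 1.79. The order of the families thus depended on which genes were summed. All 7 members known as proteoglycanases had a log2 ratio above 0, against 63.2% of all genes, and 5 of them were at least 2-fold higher, against 13.7% of all genes. Adamts7 and Adamts17 went the other way.

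Adamts2 removes the N-propeptide of fibrillar procollagens. It had 475 UMIs or 33.0 CPM in control tissue and 3019 UMIs or 233 CPM in transgenic tissue (log2 ratio 2.82, 2.68 to 2.96). Its control quadrants held 34.0, 31.9, 32.2 and 34.1 CPM and its transgenic quadrants 217, 272, 168 and 284 CPM, which did not overlap. Adamts3, of the same enzymatic group, had a log2 ratio of 0.93 (0.62 to 1.24).

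Of the proteoglycanases, which cut versican, aggrecan and related core proteins, Adamts1 had 20.5 CPM in control tissue and 70.9 CPM in transgenic tissue (log2 ratio 1.79, 1.60 to 1.98). Adamts8 had 2.37 and 13.1 CPM, and Adamts5 had 9.60 and 28.3 CPM. Adamts15 and Adamts9 were less than 2-fold higher, with log2 ratios of 0.91 (0.60 to 1.23) and 0.61 (0.42 to 0.80). The quadrants of Adamts9 overlapped, and those of the other 4 named here did not.

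Adamts7 and Adamts12, both known to cleave cartilage oligomeric matrix protein (COMP), differed in opposite directions. Adamts7 had 283 UMIs or 19.7 CPM in control tissue and 149 UMIs or 11.5 CPM in transgenic tissue (log2 ratio -0.78, -1.07 to -0.48). Adamts12 had 4.73 and 10.5 CPM (log2 ratio 1.15, 0.72 to 1.59). The gene of their substrate, Comp, had 63 UMIs in the control and 3422 in the transgenic section.

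Of the ADAMTS genes known from fibrillin microfibrils, Adamts10 had 31.2 CPM in control tissue and 73.8 CPM in transgenic tissue (log2 ratio 1.24, 1.08 to 1.41). Adamts17 had 37 and 15 UMIs (log2 ratio -1.15, -2.12 to -0.25), and its quadrants overlapped.

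Adamtsl2, a microfibril-associated protein that binds the latent TGF-β binding protein LTBP1, was the second highest log2 ratio of all members after Timp1. It had 171 UMIs or 11.9 CPM in control tissue and 2568 UMIs or 198 CPM in transgenic tissue (log2 ratio 4.06, 3.84 to 4.29). The control quadrants held 16.7, 11.4, 11.7 and 8.05 CPM and the transgenic quadrants 163, 240, 146 and 248 CPM. An Adamtsl2 UMI was present in 11.5% of control spots and 83.3% of transgenic spots. Adamtsl5, also known to bind microfibrils, had 86.7 and 274 CPM (log2 ratio 1.66, 1.56 to 1.75). Adamtsl4 was higher by a log2 ratio of 0.45 (0.32 to 0.59), and Adamtsl3 had 0.22 (-0.10 to 0.54). As a share of ADAMTS-like UMIs, Adamtsl2 made up 7.11% in the control and 35.1% in the transgenic section.

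Promoter sequences from RefSeq (GRCm38.p6) were found for 38 of the 61 members, and the 250 bases before the annotated start were searched for 3 motifs chosen after the counts were known. The AP-1 motif TGANTCA, a palindrome, was present in 6 of the 38 members (15.8%) and in 7.82% of the 27025 genes of the table. The TEAD motif CATTCC, searched on both strands, was present in 2 members (5.26%) and in 14.4% of all genes. The TATA motif TATAAA, searched on the gene's strand, was present in 7 members (18.4%) and in 8.94% of all genes. All AP-1 members but Adam19 are neighbors on chromosome 9, between positions 7272394 and 7692340. The TATA members Mmp3, Mmp7, Mmp13 and Mmp20 lie in the same stretch, so these counts are not of independent genes. Mmp7, Mmp12 and Mmp20 were also among the members with no more than 18 UMIs in either section.

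The 250 bases before the start of the members with the highest log2 ratios, Timp1 and Adamtsl2, are shown with those of Timp4 and Mmp15, which had lower CPM in the transgenic section. Capitals mark the motif found, TEAD in Timp1 on the opposite strand from 247 to 242 bases before the start, and TATA in Adamtsl2 from 30 to 25 bases before it. None of the 3 motifs was found in the windows of Timp4 and Mmp15. The windows lie at chrX:20869916-20870165 (plus strand) for Timp1, chr2:27079129-27079378 (plus) for Adamtsl2, chr6:115252206-115252455 (minus) for Timp4 and chr8:95352046-95352295 (plus) for Mmp15.
Timp1: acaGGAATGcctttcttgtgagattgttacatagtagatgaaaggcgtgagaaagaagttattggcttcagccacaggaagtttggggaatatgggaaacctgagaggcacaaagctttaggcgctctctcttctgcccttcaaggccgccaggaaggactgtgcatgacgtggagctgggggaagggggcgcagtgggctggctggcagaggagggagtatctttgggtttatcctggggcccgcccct
Adamtsl2: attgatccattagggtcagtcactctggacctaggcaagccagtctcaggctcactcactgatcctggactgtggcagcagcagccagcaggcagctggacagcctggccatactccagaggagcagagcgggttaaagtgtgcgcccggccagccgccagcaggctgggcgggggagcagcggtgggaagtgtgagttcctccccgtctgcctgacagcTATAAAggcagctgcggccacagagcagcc
Timp4: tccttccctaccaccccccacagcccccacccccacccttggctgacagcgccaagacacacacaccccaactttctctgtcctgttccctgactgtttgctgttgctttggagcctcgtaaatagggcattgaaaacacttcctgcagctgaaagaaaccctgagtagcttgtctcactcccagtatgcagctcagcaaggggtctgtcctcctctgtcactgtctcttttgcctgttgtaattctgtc
Mmp15: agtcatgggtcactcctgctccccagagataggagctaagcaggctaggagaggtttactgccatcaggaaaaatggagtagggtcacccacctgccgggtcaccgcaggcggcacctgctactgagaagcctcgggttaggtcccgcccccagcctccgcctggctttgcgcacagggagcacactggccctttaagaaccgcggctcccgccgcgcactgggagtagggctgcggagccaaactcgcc

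The AP-1 members were Adam19, Mmp3, Mmp7, Mmp12, Mmp13 and Mmp20. The 120 bases before the annotated start are shown for Mmp3 and Mmp13. They were chosen because each carries the AP-1 motif close to that start, followed by a TATA motif, while only Mmp3 was 2-fold higher. Whether the annotated starts are those used in this tissue was not checked, and the distances below depend on them. Mmp3 had a log2 ratio of 2.36 (1.57 to 3.24) from 16 control and 74 transgenic UMIs, and Mmp13 of -0.20 (-1.18 to 0.75) from 23 and 18. The control count of Mmp3 and the transgenic count of Mmp13 were not above 18 UMIs, the level given for the testis genes. Capitals mark AP-1 from 46 to 40 bases before the start and TATA from 7 to 2 bases in Mmp3 (chr9:7445702-7445821, plus), and AP-1 from 35 to 29 and TATA from 16 to 11 in Mmp13 (chr9:7272394-7272513, plus).
Mmp3: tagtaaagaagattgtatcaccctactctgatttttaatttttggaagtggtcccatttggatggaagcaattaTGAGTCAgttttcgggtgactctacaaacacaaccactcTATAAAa
Mmp13: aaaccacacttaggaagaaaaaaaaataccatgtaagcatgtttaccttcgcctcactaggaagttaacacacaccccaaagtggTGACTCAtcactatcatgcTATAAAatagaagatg

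The genes that act with these proteases were described from lists, which were chosen with earlier results of these data known. Of 26 regulators (cofactors, activating proteases and their inhibitors), 22 had a log2 ratio above 0, 14 were at least 2-fold higher and 2 at least 2-fold lower, with a median log2 ratio of 1.03. Over all genes with at least 20 UMIs, 63.2% had a log2 ratio above 0 and 13.7% were at least 2-fold higher. Papln (papilin), a matrix protein related to the ADAMTS family, was the lowest at 11.5 CPM in control tissue and 3.55 CPM in transgenic tissue. Furin, the convertase that activates membrane-type MMPs, ADAMs and ADAMTS proteases, had 96.8 and 199 CPM. Bmp1, the procollagen C-proteinase, had 60.2 and 122 CPM, and its enhancer Pcolce had 87.6 and 202 CPM. Bsg (basigin, a surface protein known to induce MMPs) had 2587 and 2041 CPM, a log2 ratio of -0.34.

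Of 20 genes for matrix substrates, all had a log2 ratio above 0, 15 were at least 2-fold higher (against the 63.2% and 13.7% of all genes) and the median log2 ratio was 2.19. This list was chosen with earlier results of these data known, so these counts do not test matrix genes as a class. Comp was the highest at 5.91 and Acan (aggrecan) the lowest at 0.40 on the log2 scale, the latter from 16 and 19 UMIs. Eln (elastin) had 47.4 CPM in control tissue and 1548 CPM in transgenic tissue, and Col1a1, a procollagen substrate of Adamts2, had 172 and 1101 CPM. Of 16 counted genes for substrates shed from the membrane, 13 had a log2 ratio above 0, 6 were at least 2-fold higher and 1 at least 2-fold lower, with a median log2 ratio of 0.57. Nrg1 (neuregulin 1) was the highest at 2.67 with 60 and 343 UMIs, and Tnf was the lowest at -1.10 with 31 and 13 UMIs. App (amyloid precursor protein) and Tnfrsf1a (a TNF receptor) each had a log2 ratio of 1.03, while Notch1, Cdh5 (VE-cadherin) and Sdc4 (syndecan 4) had log2 ratios of 0.02, 0.05 and -0.09.

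Marker genes of other cell types, in lists also chosen with earlier results known, differed between the sections as well. The 10 activated fibroblast genes, such as Postn and Col1a1, summed to 718 CPM in the control (quadrants 634 to 801) and 4144 CPM in the transgenic section (quadrants 2680 to 5415), with 9 of 10 at least 2-fold higher. Col1a1, Postn, Fn1, Col3a1 and Tnc stand both in this list and among the matrix substrates. The 10 general fibroblast genes summed to 1219 and 1425 CPM, of which Gsn alone held 595 CPM in each section. Their log2 ratios ran in both directions, from -1.56 (Clec3b) to 2.31 (Mfap5). The 10 macrophage genes summed to 321 and 631 CPM, with log2 ratios from -0.20 (Lyz2) to 1.28 (Cd163). Endothelial genes (1906 and 2002 CPM) and mural genes (1290 and 1284 CPM) were nearly level as sums, with members in both directions, from -0.92 (Kdr) to 2.48 (Vwf) and from -1.58 (Abcc9) to 0.63 (Tagln) on the log2 scale. Of 10 neutrophil genes 4 reached 20 UMIs. All 10 together summed to 15.8 and 71.3 CPM, and the transgenic sum was mostly Lcn2, a gene not restricted to neutrophils. The part of these cell types in the members' differences was not tested, and in spots more cells of a type cannot be told apart from more RNA per cell.

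Within each section the spots were divided into 3 equal groups by their share of general fibroblast UMIs, and the groups with the lowest and highest share are called fibroblast-poor and fibroblast-rich. Of the 31 members with at least 200 UMIs, 25 in the control and 26 in the transgenic section had a higher CPM in the fibroblast-rich than in the fibroblast-poor spots, against 61.5% and 69.2% of the 9320 genes with at least 200 UMIs. The fibroblast-poor spots of the transgenic section held 0.0861% fibroblast UMIs and the fibroblast-rich spots of the control 0.192%. In these groups, in that order, Timp1 had 50.0 and 2.41 CPM, Adamts2 159 and 46.7 CPM, and Mmp2 106 and 65.3 CPM. These 3 genes were picked after their values were seen. Since the genes of the fibroblast list differed in both directions between the sections, its share does not stand for the same cells in both. In other groups, ranked by the activated fibroblast share, that share was 0.151% in the poorest transgenic spots and 0.120% in the richest control spots. The part of either fibroblast share in the members' differences was not tested.

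Divided in the same way by the share of cardiomyocyte UMIs, the transgenic section showed members on both sides. Of the 31 members, 7 in the transgenic and 11 in the control section had a higher CPM in the cardiomyocyte-rich than in the cardiomyocyte-poor spots, against 39.8% and 38.7% of all genes with at least 200 UMIs. In the transgenic section Timp4 had 8.70 CPM in the cardiomyocyte-poor spots and 27.7 CPM in the cardiomyocyte-rich spots, and Mmp15 had 49.3 and 79.5 CPM. The same split of the control section gave 20.5 and 25.5 CPM for Timp4 and 143 and 147 CPM for Mmp15. In the richest of the 3 groups Timp4 was therefore not lower in the transgenic section, whereas Mmp15 was. In the 50% of spots richest in cardiomyocyte genes the log2 ratios were -0.15 for Timp4 and -1.02 for Mmp15. Adamts7 and Adam11, the other members with every quadrant lower, had their higher transgenic CPM in the cardiomyocyte-poor spots (15.5 and 8.91 CPM, and 14.5 and 3.52 CPM).

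Mmp2, Adamts2 and Mmp23 ran the other way in the transgenic section, with 230 and 91.0 CPM, 318 and 126 CPM, and 145 and 63.8 CPM in the cardiomyocyte-poor and cardiomyocyte-rich spots. Adamts1 (64.3 and 87.4 CPM) and Adamts9 (31.9 and 58.6 CPM) had their higher CPM in the cardiomyocyte-rich spots. The cardiomyocyte share itself was 3.20% and 5.59% in these transgenic spots and 7.52% and 8.85% in the control spots, so a group of spots does not stand for the same tissue in both sections. Of the genes of the cardiomyocyte list, 2 were higher and 7 lower in the transgenic section. Within that section, fewer cardiomyocytes in a spot cannot be told apart from less RNA of these genes per cell.

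**Figure D4:**
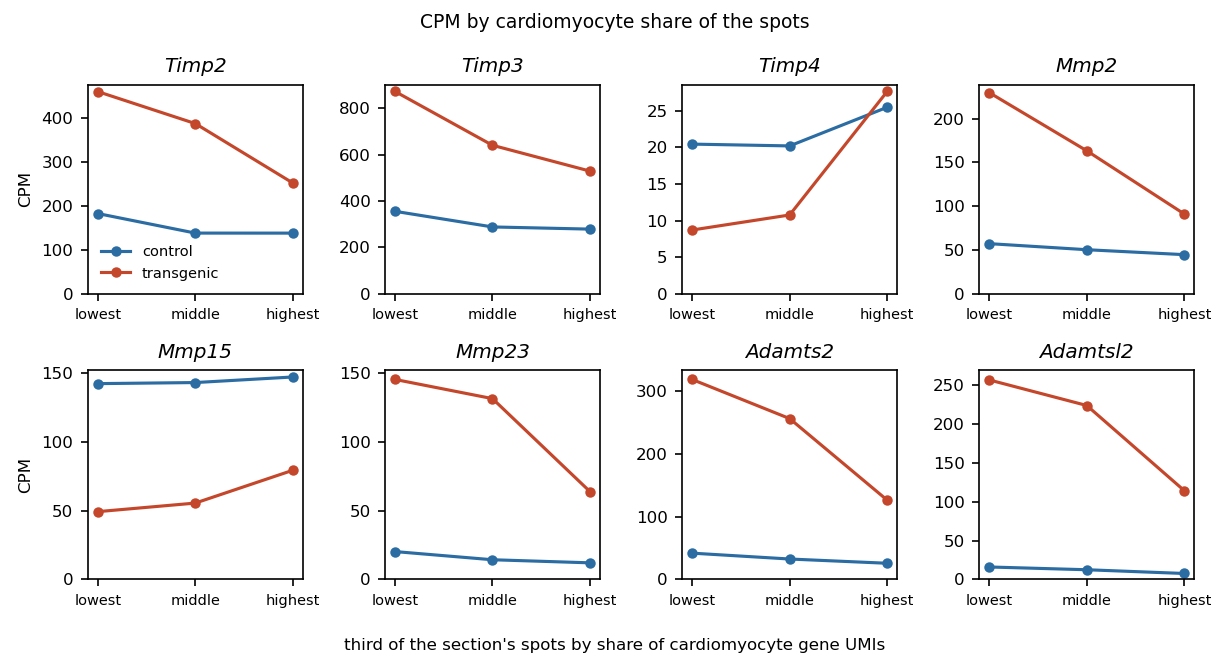
CPM of 8 members (vertical axes, from 0) in the 3 equal groups of spots with the lowest, middle and highest share of cardiomyocyte UMIs, for the control (blue) and transgenic (red) section. Timp4 and Mmp15 are highest in the cardiomyocyte-rich spots of the transgenic section, where Timp4 reaches the control line, and the other 6 genes are lowest there.

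Some of the members were spatially patterned in the transgenic section. Moran's I, the deposited score of how alike neighboring spots are, with 0 for no pattern, was higher in the transgenic section for 30 of the 31 members with at least 200 UMIs. It reached 0.1 in 12 members in the transgenic section and in none in the control, against 15.5% and 0.912% of all genes with at least 200 UMIs. The members' median was 0.005 in the control and 0.059 in the transgenic section. Over all those genes the median was also higher in the transgenic section, at 0.028 against 0.003. How many of all genes had a higher transgenic score was not counted, so the 30 of 31 does not set the members apart from other genes. The highest transgenic scores were 0.49 for Timp3, 0.35 each for Timp2 and Adamtsl2, 0.34 for Adamts2 and 0.28 for Mmp2, and in the control these genes were between 0.01 and 0.06. These genes also had more UMIs in the transgenic section, and the part of that in the score was not tested.

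Rank correlations over spots with at least 1000 UMIs described the same layout, with points that share a section and its depth. Between the TIMP and MMP sums, Spearman's rho was 0.43 over 921 transgenic spots and 0.09 over 1249 control spots. With the activated fibroblast share, rho in the transgenic section was 0.52 for TIMP, 0.50 for MMP, 0.51 for ADAMTS and 0.32 for ADAM genes. In the control these values were 0.28, 0.09, 0.17 and 0.06. The TIMP sum and the erythroid share had a rho of -0.28 in the transgenic and 0.03 in the control section, and the part of erythroid spots in the other values was not tested. Of 15 pairs computed in each section, Mmp15 and Timp4 with the cardiomyocyte share had 0.23 and 0.24 in the transgenic section, where Mmp2 had -0.32. In the control Mmp15, Timp4 and Mmp2 had 0.04, 0.05 and -0.06.

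**Figure D5:**
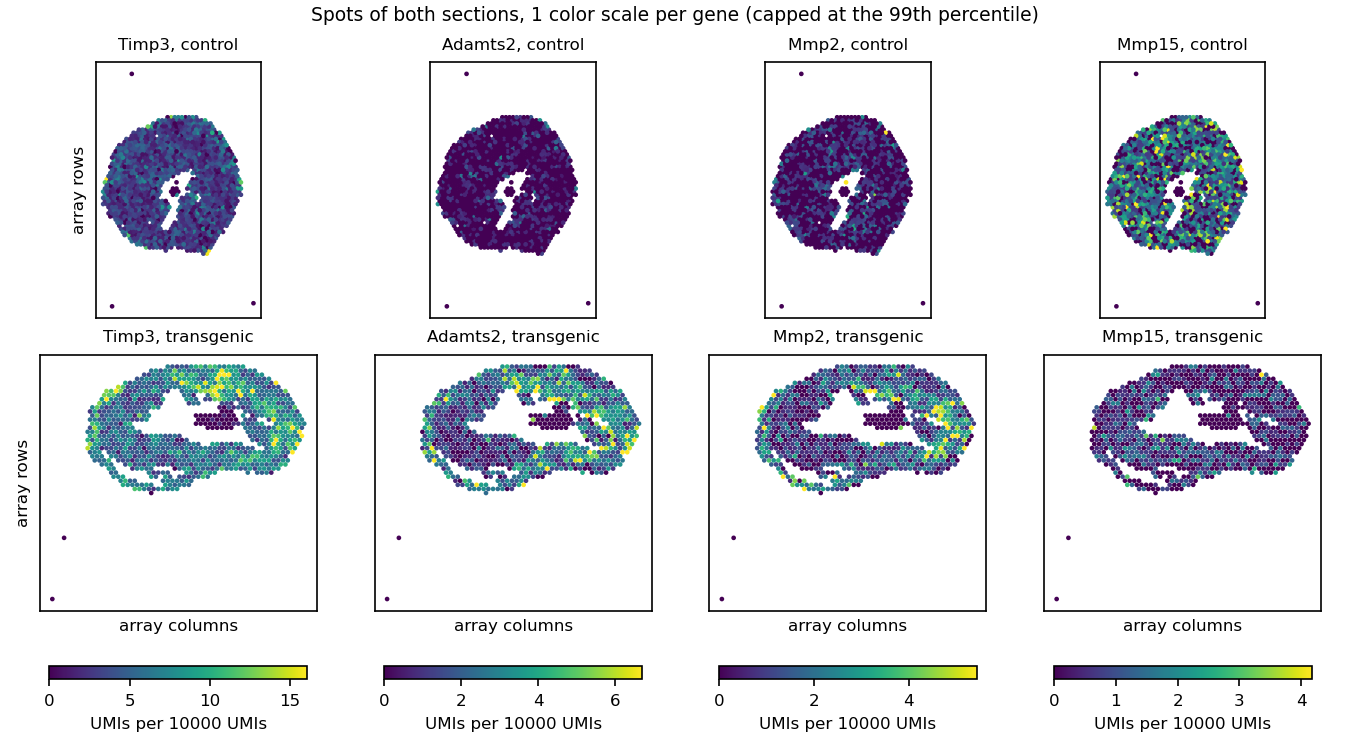
Spots of the control (top) and transgenic (bottom) section at their array positions, colored by UMIs of the gene per 10000 UMIs of the spot on 1 color scale per gene. Timp3, Adamts2 and Mmp2 are bright in parts of the upper and right side of the transgenic section, and Timp3 and Adamts2 also in spots at its left edge. Mmp15 is brighter over the whole control section. A patch of spots with few UMIs near the middle of the transgenic section is nearly dark for all 4 genes.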

How the data were processed

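A control and a transgenic heart were assayed as FFPE sections with Visium CytAssist. The values deposited are raw UMI counts for each gene in each spot over tissue, made by the authors with Space Ranger 2.0.0 per the file headers. The deposited score Moran's I was used as given. The submitters' processing notes name GRCm39, the probe set is not given in the sources used here, and a count can only come from a probed gene. Counts were summed per section and expressed as CPM, with a floor of 3 counts. Intervals were exact conditional binomial for ratios and Clopper–Pearson for shares. Only the ratio intervals were tried on simulated data, with independent Poisson counts as they assume, which says nothing about spread between sections. The 95% level covers counting error only. Quadrants were cut at the mean spot position, because a few stray spots displaced the midpoint. Groups of spots by list share were ranked within a section.

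Members and lists were chosen with earlier results of these data known. Values were given for members with at least 200 UMIs, Timp1 and Timp4, and the highest and lowest log2 ratio of each family. List genes that were highest, lowest or had at least 1000 UMIs could be named, and only some of them were. Other genes were named after their values were seen. A list gene that this rule names is not reported here. The study's test over spots was not repeated, since spots are not replicates. Depth was 14376300 and 12953389 UMIs, with medians of 11336 and 14531 per spot, and 725 barcodes, which are array positions, occurred in both sections. Alternatives were TMM factors (edgeR 4.0.16), DESeq2 1.42.0 size factors, totals without the 50 most abundant genes, 4 subsets of spots, a mean over spots, 1 CPM added, other minimum counts, and the MMP sum without Mmp15. Python 3.11.15 and scipy 1.17.1 were used. Images, deposited p values of Moran's I and clusters were not used.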

Additional observations from a re-analysis of the deposited data

How the results depend on the processing

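Under TMM, DESeq2 factors and totals without the 50 most abundant genes, the median log2 ratio of all genes moved from 0.20 to 0.05, 0.05 and 0.12, and these 4 family sums moved with it (the ADAMTS-like sum was not recomputed): TIMP sums to 1.05, 1.06 and 1.12, MMP to 0.63, 0.64 and 0.70, ADAM to 0.58, 0.59 and 0.65, and ADAMTS to 1.45, 1.46 and 1.52. Timp3, Mmp11 and Mmp28 were under 2-fold with TMM and DESeq2 factors, where Adam10 changed sign, Adamts12 with TMM, and Mmp11 and Mmp28 also without the 50 most abundant genes. In the 50% of spots richest in cardiomyocyte genes the sums were 1.06 (TIMP), 0.45 (MMP), 0.66 (ADAM) and 1.48 (ADAMTS), 8 members were 2-fold lower (7.44% of all genes), the TIMP share of TIMP and MMP UMIs was 63.9% and 72.9%, Adamtsl3 changed sign, Adam11 went to -1.45, Mmp14 to 1.47 and Timp4 to -0.15, and Adamts10 (0.92), Timp3, Mmp11 and Mmp28 were under 2-fold. In the 50% poorest in erythroid genes TIMP was 1.31 and ADAMTS 1.69. Away from the tissue edge Adam3 went to -3.59, TIMP was 1.27 and the control TIMP share 64.6%. As a mean over spots TIMP was 1.13. With 1 CPM added, Timp1 went to 4.23, and Adam3 (-0.78) and Adamts17 (-0.73) were no longer 2-fold lower, nor Mmp11 and Mmp28 2-fold higher. With members of at least 1 UMI (all 83 symbols but the 3 without a UMI), 29 were 2-fold higher and 9 lower. Of the 31 members with at least 200 UMIs, 18 were 2-fold higher and 1 lower, and the TIMP shares were 67.1% and 73.0%. The shares of all genes at these minimum counts were not computed. Without Mmp15 the MMP sum was 1.79 and the TIMP share 81.6% in the control and 74.8% in the transgenic section, which turned its direction because Mmp15 held most control MMP UMIs. The cause of the other moves was not tested. Under the other scalings, the subsets of spots and the mean over spots, between 21 and 28 of the 61 members were at least 2-fold higher. The share of all genes at least 2-fold higher ran from 10.6% (TMM) to 16.4% (spots poorest in erythroid genes) under these settings. No paired analysis was possible because each group had 1 section. With 1 section per genotype, the differences between animals, section planes and genotypes cannot be told apart, and genes with few UMIs have wide intervals.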
